A study of Mus musculus with 2 samples.

Results

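The 10 genes followed here are the astrocyte genes Slc1a2, Slc1a3, Glul, Aqp4, Gja1, Mfge8 and Aldoc, which mark the resting functions of the cell, and Gfap, Vim and Serpina3n, which are markers of reactive astrocytes. They were taken by symbol from the 31053 genes of the count tables, and all 10 were found. The tables hold 2 libraries of single nuclei from the entorhinal cortex of male APP/PS1 mice, a transgenic model of amyloid deposition, aged 18 months. The OLE library came from mice given N-oleoyl-leucine (C18:1-Leu on the label, an N-acyl amino acid) at 25 mg/kg/day, and the vehicle library from mice given DMSO. Both groups were dosed in alkaline drinking water, starting at 15 and ending at 18 months of age. Each library pooled nuclei of 5 mice, both groups carried the APP/PS1 transgenes, and no wild-type or younger mice were analysed here.

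Astrocytes clear glutamate from the synapse with the transporters encoded by Slc1a2 and Slc1a3 and convert it to glutamine with the enzyme encoded by Glul. They exchange water at their endfeet on blood vessels through aquaporin-4 (Aqp4), and they are coupled into a network by connexin-43 gap junctions (Gja1). Around amyloid plaques astrocytes become reactive, with more of the intermediate filament proteins GFAP and vimentin.

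Each condition has a single library and so no replicate, and OLE and vehicle are compared without a test or a p-value. A level is the number of UMIs (transcript molecules counted) of a gene in a cell class, per 1000000 UMIs of that class. Its 95% interval is exact (Poisson for a level, Clopper-Pearson for a share or for the ratio of 2 counts) and covers counting error only, not the spread between mice or libraries. The vehicle library held 6745 nuclei and 70845739 UMIs, with a median of 3989 UMIs per nucleus, and the OLE library 6173 nuclei and 69485537 UMIs, with a median of 6392. The libraries shared 14 barcodes, and 0 of these were astrocyte-like. Of 26 clusters, 4 stayed unnamed, among them a pair of low-UMI clusters split by library, with 2262 vehicle and 305 OLE nuclei in one and 218 and 1709 in the other.

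Astrocyte-like nuclei formed 1 cluster with 120 nuclei of the vehicle and 136 of the OLE library. All 18 astrocyte markers on a list that held none of the 10 genes were raised in it, and Gli3, Gpc5, Acsbg1 and Bmpr1b were among its 10 leading genes. The 10 genes were kept out of the genes used for clustering, so their levels did not shape the cluster. Astrocyte-like nuclei made up 3.46% of the named nuclei in the vehicle (95% interval 2.88 to 4.12) and 4.11% in the OLE library (3.46 to 4.84), and these intervals overlapped. They held 766108 UMIs in the vehicle and 874037 in the OLE library, with medians per nucleus of 5854.5 and 5740. Their UMIs included markers of other cells. Glutamatergic markers summed to 499.9 UMIs per 1000000 in the vehicle and 426.8 in the OLE library, GABAergic markers to 909.8 and 794.0, oligodendrocyte markers to 362.9 and 265.4, microglial markers to 156.6 and 169.3 and endothelial markers to 22.2 and 17.2. The GABAergic markers Dlx1 and Lhx6 and the endothelial marker Ly6c1 were at 0 UMIs in both libraries.

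The glutamate transporter genes had the most UMIs of the 10. Slc1a2 (glutamate transporter GLT-1; ENSMUSG00000005089, GRCm38 chr2:102658659-102790784, plus strand) had 6561 UMIs in vehicle and 8005 in OLE astrocyte-like nuclei, or 8564 and 9159 UMIs per 1000000. Slc1a3 (glutamate transporter GLAST; ENSMUSG00000005360, chr15:8634124-8710764, minus strand) had 2498 and 2791 UMIs, or 3261 and 3193 per 1000000. Both genes had a UMI in every astrocyte-like nucleus of each library, at medians of 50 and 51.5 UMIs per nucleus for Slc1a2 and 18 and 19.5 for Slc1a3. Glul (glutamine synthetase; ENSMUSG00000026473, chr1:153899944-153909723, plus strand) had 344 and 414 UMIs, or 449.0 and 473.7 per 1000000. For Slc1a3 and Glul the intervals of the 2 libraries overlapped, and for Slc1a2 those of the level did not (8358 to 8774 against 8959 to 9362), with a difference of 1.07-fold.

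The genes of the endfoot, of coupling and of secretion stood higher in OLE. Mfge8, which encodes a secreted bridging protein for the uptake of dying cells and debris (ENSMUSG00000030605, chr7:79133768-79149060, minus strand), had 183 UMIs in vehicle and 429 in OLE astrocyte-like nuclei, or 238.9 and 490.8 per 1000000. Aqp4 (ENSMUSG00000024411, chr18:15389496-15410982, minus strand) had 201 and 439 UMIs, or 262.4 and 502.3 per 1000000. Gja1 (ENSMUSG00000050953, chr10:56377330-56402513, plus strand) had 341 and 615 UMIs, or 445.1 and 703.6 per 1000000. In each of these the intervals of the 2 libraries lay apart. Aldoc (aldolase C, a glycolytic enzyme; ENSMUSG00000017390, chr11:78322968-78327781, plus strand) had 145 and 195 UMIs, or 189.3 and 223.1 per 1000000, with overlapping intervals (159.7 to 222.7 and 192.9 to 256.7).

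Of the reactive markers, Gfap was measurable and the other two were near the limit of detection. Gfap (glial fibrillary acidic protein; ENSMUSG00000020932, chr11:102887336-102900912, minus strand) had 129 UMIs in vehicle and 162 in OLE astrocyte-like nuclei, or 168.4 and 185.3 per 1000000. Vim (vimentin; ENSMUSG00000026728, chr2:13573927-13582826, plus strand) had 4 and 3 UMIs in all, and Serpina3n (a secreted serine protease inhibitor; ENSMUSG00000021091, chr12:104406729-104414329, plus strand) had 5 and 5. A count of 3 UMIs corresponds to 3.92 per 1000000 in the vehicle and 3.43 in the OLE astrocyte-like nuclei, so no difference in Vim or Serpina3n could be detected at this depth.

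Levels of different genes were set side by side only per kb of genomic span, since nuclear libraries count unspliced transcripts. On that scale (UMIs per 1000000 per kb) Slc1a2 stood at 64.8 in vehicle and 69.3 in OLE, above every other member. Glul (45.9 and 48.4), Slc1a3 (42.5 and 41.7) and Aldoc (39.3 and 46.3) followed, and their intervals overlapped in the vehicle. In the vehicle Gja1 (17.7), Mfge8 (15.6), Gfap (12.4) and Aqp4 (12.2) formed a lower group, in which each interval overlapped that of its neighbour in the order. In OLE, Mfge8 (32.1), Gja1 (27.9) and Aqp4 (23.4) lay above Gfap (13.7), whose interval of 11.6 to 15.9 did not reach theirs. Serpina3n (0.859 and 0.753) and Vim (0.587 and 0.386) were lowest.

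Of the 10 genes, 8 had 100 UMIs or more over both libraries in astrocyte-like nuclei, the minimum for the set of 2991 genes against which they were read. Of those 8, all stood at 4 times or more the level of the other named nuclei in both libraries, against 15.8% of the 2991 genes. Slc1a3 was 81.8-fold higher in astrocyte-like than in other named nuclei in the vehicle (interval 77.2 to 86.6) and 88.0-fold in OLE. Mfge8 was 69.9-fold and 117.3-fold higher, Aqp4 67.6-fold and 107.3-fold, Gja1 59.1-fold and 71.3-fold and Gfap 52.3-fold and 46.7-fold. The metabolic genes and Slc1a2 were less restricted. Aldoc was 26.7-fold and 21.2-fold higher, Slc1a2 26.3-fold and 27.1-fold and Glul 24.2-fold and 22.1-fold. Vim was not distinguishable from the other nuclei, at 2.64-fold (0.707 to 6.96) in the vehicle and 1.16-fold (0.236 to 3.44) in OLE.

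**Figure D1:**
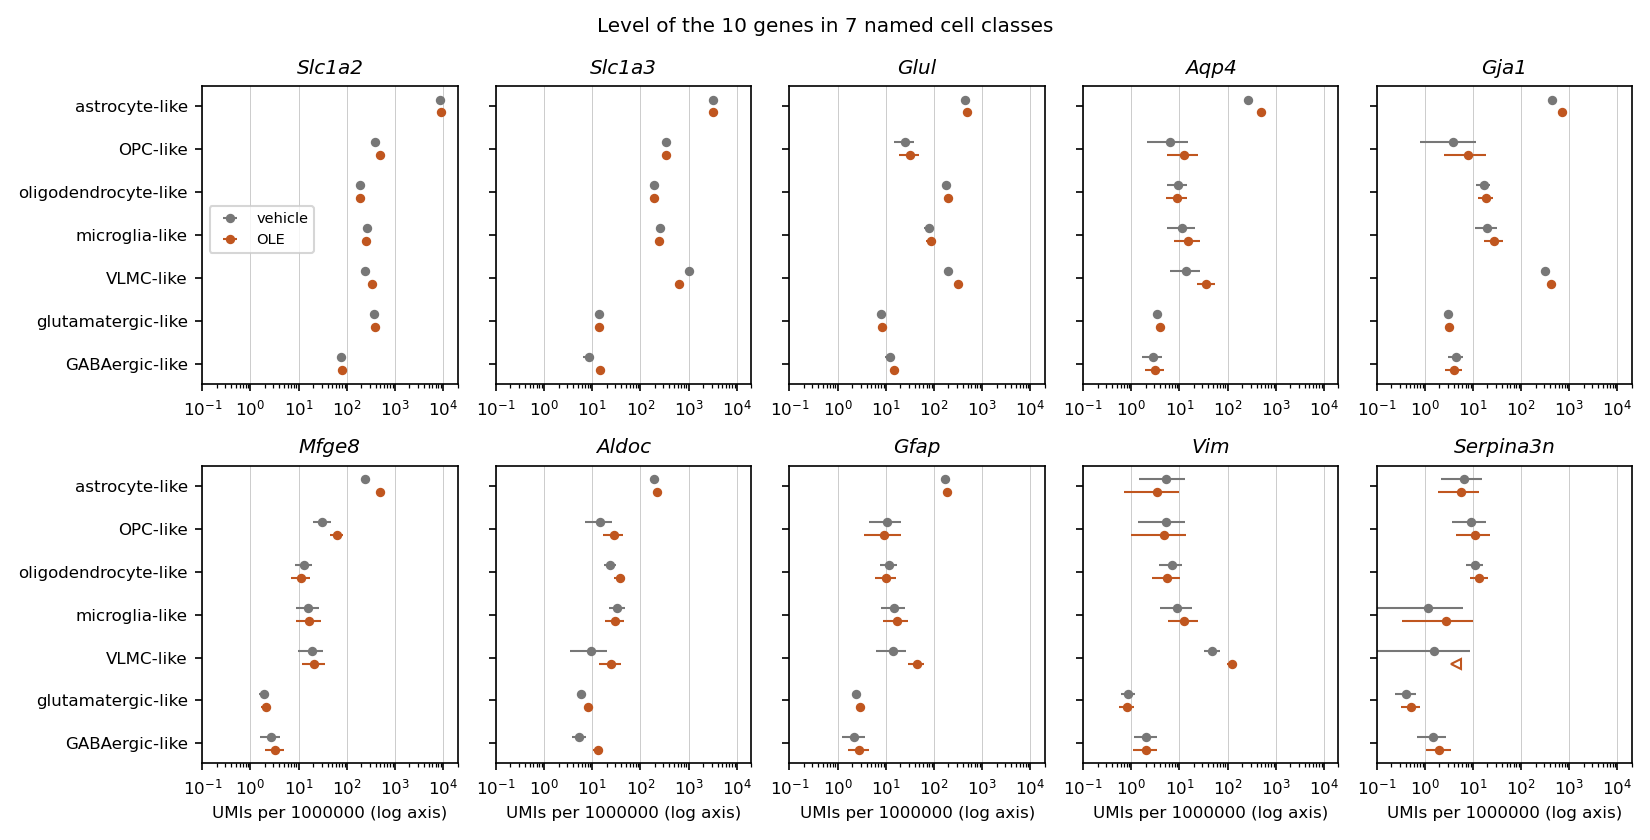
Level of each of the 10 genes in 7 named cell classes, in UMIs per 1000000 UMIs of the class on a log axis, with exact 95% Poisson intervals as bars, for the vehicle (grey) and the OLE library (orange). An open triangle marks a class with 0 UMIs at the level of 3 counts. Slc1a2, with 371.9 and 385.0 in glutamatergic-like nuclei, and Vim, with 48.0 and 122.3 in VLMC-like nuclei, show how far the genes reach outside astrocyte-like nuclei.

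Slc1a2 and Slc1a3 parted in most neuronal clusters. In glutamatergic-like nuclei Slc1a2 stood at 371.9 UMIs per 1000000 in the vehicle and 385.0 in OLE, while Slc1a3 stood at 13.6 and 14.0. The number of Slc1a2 UMIs per UMI of Slc1a3 was 2.63 (2.51 to 2.75) in vehicle and 2.87 (2.75 to 2.995) in OLE astrocyte-like nuclei, and 27.4 (25.3 to 29.8) and 27.5 (25.29 to 30.002) in glutamatergic-like nuclei. This summed glutamatergic ratio lay outside the astrocyte-like intervals. The glutamatergic-like cluster led by Ndst4, Dach1 and Otof was an exception, at 1.66 (1.44 to 1.91) in vehicle and 2.57 (2.26 to 2.91) in OLE. In GABAergic-like nuclei the ratio was 8.91 and 5.48. The part of free RNA in these levels was not tested. In oligodendrocyte-like nuclei the ratio was 0.969 and 0.962, and in microglia-like nuclei 1.02 and 1.01.

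Among the 13 glutamatergic-like clusters the level of Slc1a2 varied from 108.6 to 999.5 UMIs per 1000000 in the vehicle and from 129.2 to 949.1 in OLE. The order of the clusters was nearly the same in both libraries (Spearman's rho = 0.989 over 13 clusters, given as a description since the clusters of a library share its preparation). The cluster led by Sntb1, Kcnh8 and Hmga2 was highest, at 999.5 and 949.1. The clusters led by Foxp2 and Syt6 (735.6 and 777.4), by Cobll1 and Sulf1 (659.5 and 768.5) and by Rorb (653.1 and 657.5) came next. The cluster led by Ndst4, Dach1 and Otof was lowest in Slc1a2 and highest in Slc1a3, at 65.5 and 50.3 UMIs per 1000000 of Slc1a3 against 3.06 to 23.3 and 3.19 to 12.6 in the 12 others. GABAergic-like nuclei held 75.8 and 80.8 UMIs per 1000000 of Slc1a2.

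**Figure D2:**
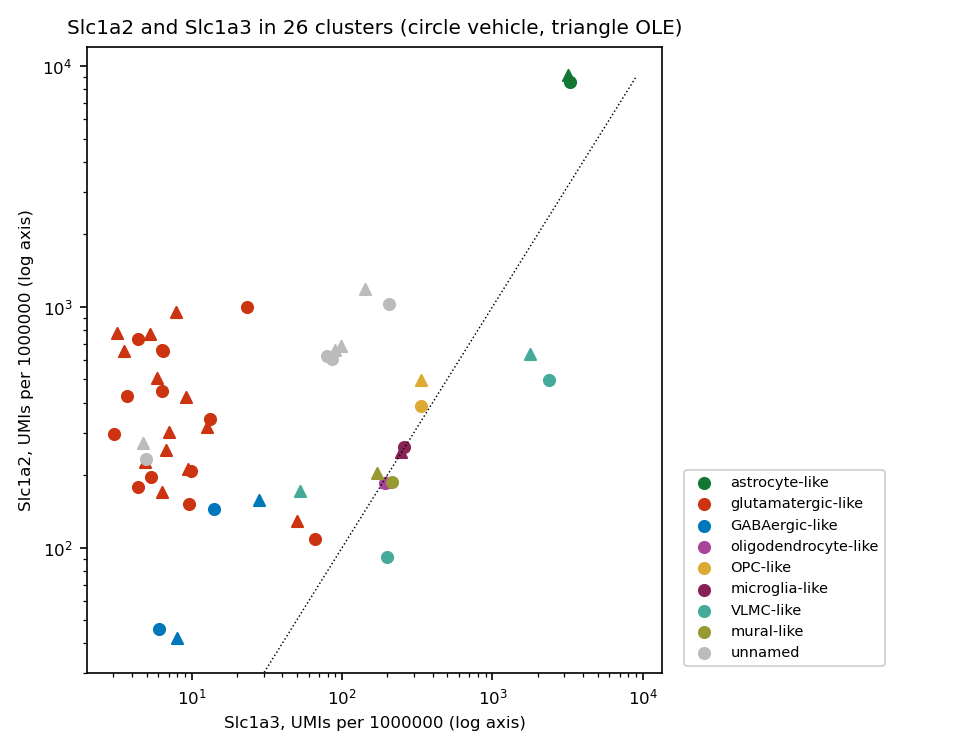
Level of Slc1a2 against that of Slc1a3 in 26 clusters, both in UMIs per 1000000 on log axes, with a circle for the vehicle and a triangle for the OLE library and the dotted line at equal levels. Astrocyte-like nuclei lie at the top right (8564 and 3261 in the vehicle), the glutamatergic-like clusters on the left, and the glial clusters near the line.

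Other members had second sites outside astrocyte-like nuclei. Slc1a3 stood at 1005 UMIs per 1000000 in vehicle and 633.9 in OLE nuclei like vascular leptomeningeal cells (VLMC), and at 336.4 and 336.5 in nuclei like oligodendrocyte precursors (OPC). Within the VLMC-like nuclei it was concentrated in the cluster led by Ranbp3l, Slc6a20a and Bmp6, at 2364 and 1770, and lower in the cluster led by Bnc2 and Slc47a1, at 199.7 and 52.5. Gja1, which also couples leptomeningeal fibroblasts, reached 308.1 and 424.1 in VLMC-like nuclei, which was at least 60.3% of its astrocyte-like level in both libraries. Glul was at 195.1 and 320.0 in VLMC-like and at 176.2 and 192.7 in oligodendrocyte-like nuclei. Mfge8 reached 241.5 and 321.7 in mural-like nuclei, but these were 11 and 16 nuclei with 9 and 19 UMIs of the gene. In microglia-like nuclei Glul was at 79.6 and 87.7 and Aldoc at 33.0 and 29.2, and in oligodendrocyte-like nuclei Aldoc was at 23.5 and 37.2.

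Vim was higher in VLMC-like nuclei and in barcodes with endothelial markers than in astrocyte-like nuclei. For Serpina3n the intervals of astrocyte-like, oligodendrocyte-like and OPC-like nuclei overlapped. Vim stood at 48.0 UMIs per 1000000 in vehicle (31 UMIs) and 122.3 in OLE (81 UMIs) VLMC-like nuclei. Among the barcodes of a mixed unnamed cluster that had UMIs of 3 or more of 9 endothelial markers (15 and 38 barcodes), Vim stood at 390.6 and 425.6. Mural-like nuclei, 11 in the vehicle and 16 in OLE, held 0 Vim UMIs in both libraries. Oligodendrocyte-like nuclei held Serpina3n at 11.04 (7.08 to 16.4) and 13.5 (8.67 to 20.1), with 24 UMIs in each library, and OPC-like nuclei at 9.09 and 10.96, against 6.53 (2.12 to 15.2) and 5.72 (1.86 to 13.3) in astrocyte-like nuclei. Against all other named nuclei, which are mostly neurons, Serpina3n was 5.95-fold (1.87 to 14.7) higher in vehicle and 4.28-fold (1.35 to 10.5) higher in OLE astrocyte-like nuclei, on 5 UMIs each.

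Between the libraries, Mfge8, Aqp4 and Gja1 had the largest differences of the 8 genes in astrocyte-like nuclei. On the log2 scale (OLE over vehicle, of UMIs per 1000000) the ratio was 1.04 for Mfge8 (95% interval 0.79 to 1.30), 0.94 for Aqp4 (0.69 to 1.18) and 0.66 for Gja1 (0.47 to 0.86), or 2.05-fold, 1.91-fold and 1.58-fold. These 3 of the 8 genes stood at 0.5 or more, against 4.38% of the 2991 genes, and 0 of the 8 at -0.5 or less, against 3.68%. Of the 2991 genes, 5 had a higher ratio than Mfge8, 8 than Aqp4 and 50 than Gja1. Mfge8 is also among the astrocyte genes that the study itself picked from these 2 libraries, so its direction is not independent evidence.

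The remaining members had log2 ratios below 0.5. Of the 2991 genes, 504 had a higher ratio than Aldoc, 790 than Gfap, 949 than Slc1a2, 1033 than Glul and 1527 than Slc1a3. Aldoc had a log2 ratio of 0.24 (-0.08 to 0.56), Gfap 0.14 (-0.20 to 0.48), Slc1a2 0.10 (0.05 to 0.14), Glul 0.08 (-0.13 to 0.29) and Slc1a3 -0.03 (-0.11 to 0.05). For Gfap the interval leaves room for a difference of up to 0.48 on the log2 scale, so a change of that size was not excluded. Vim and Serpina3n had too few UMIs for a usable ratio, with intervals from -3.38 to 1.96 and from -2.31 to 1.93. The median ratio was 0.12 over the 10 genes and 0.19 over the 8, against -0.02 over the 2991 genes.

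**Figure D3:**
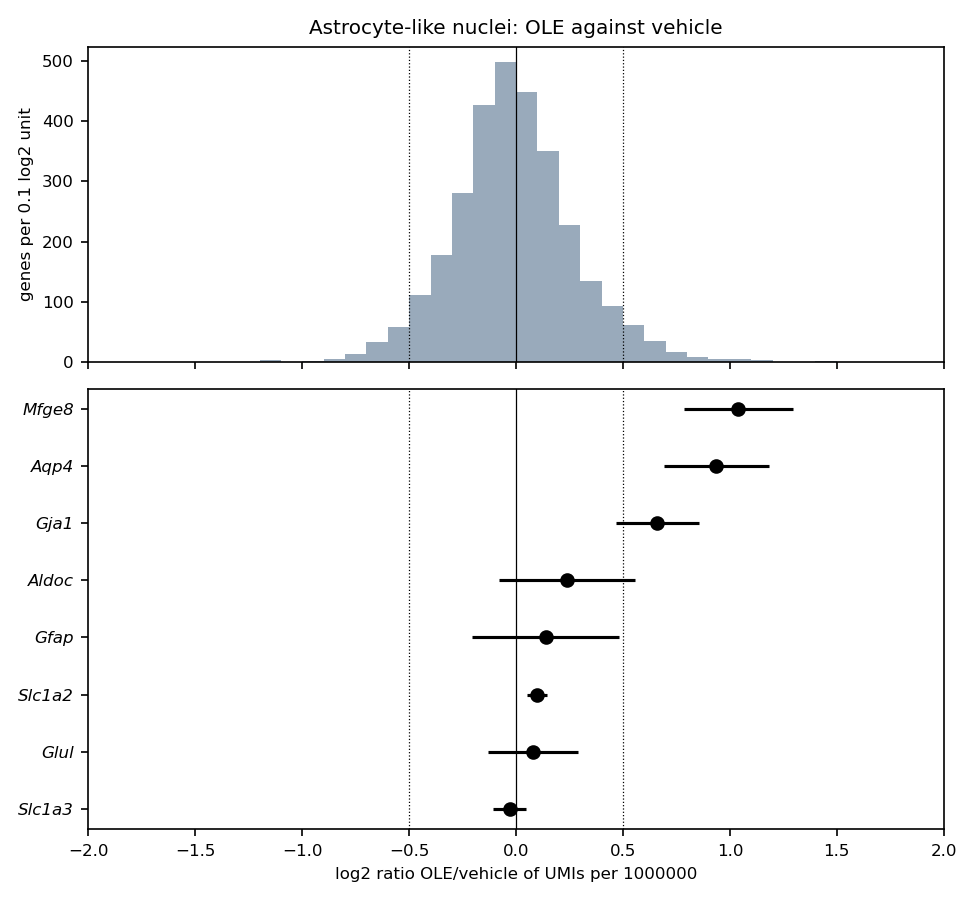
Upper panel, number of genes per 0.1 log2 unit of the OLE/vehicle ratio in astrocyte-like nuclei, for 2991 genes; lower panel, the ratio of the 8 members with 100 UMIs or more and their 95% intervals, which cover counting error only. Mfge8 at 1.04, Aqp4 at 0.94 and Gja1 at 0.66 lie beyond the dotted line at 0.5, and the 5 other genes lie between -0.03 and 0.24.

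The difference in Mfge8, Aqp4 and Gja1 was spread over many nuclei. The share of astrocyte-like nuclei with 3 UMIs or more of Mfge8 was 21.7% in vehicle and 52.2% in OLE, of Aqp4 17.5% and 41.9%, and of Gja1 39.2% and 69.1%. For Gfap this share was 11.7% and 13.2%, and for Glul 46.7% and 44.9%. A single nucleus held 24 of the 201 Aqp4 UMIs in the vehicle and another 62 of the 439 in OLE. Without the nucleus with the most UMIs in each library the log2 ratio was 0.90 for Aqp4, 1.07 for Mfge8 and 0.68 for Gja1.

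**Figure D4:**
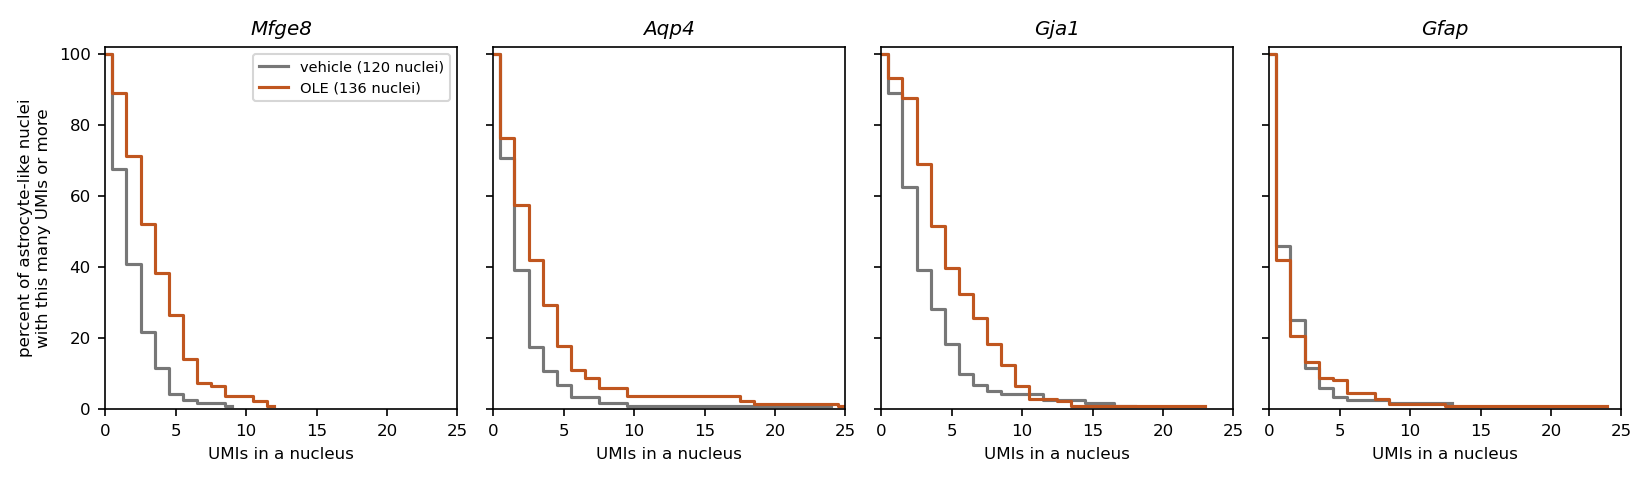
Percent of astrocyte-like nuclei (120 of the vehicle, grey, and 136 of the OLE library, orange) that held at least the number of UMIs on the x axis, for 4 genes; the axis ends at 25, and 1 OLE nucleus with 62 Aqp4 UMIs lies beyond it. The lines stand apart for Mfge8, Aqp4 and Gja1, with 52.2% against 21.7% of nuclei at 3 Mfge8 UMIs or more, and run together for Gfap, at 13.2% against 11.7%.

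The share of nuclei with any UMI of a gene was read beside cells that should lack it. A Mfge8 UMI was found in 67.5% of vehicle (58.3 to 75.8) and 89.0% of OLE (82.5 to 93.7) astrocyte-like nuclei, and in 4.19% and 4.23% of glutamatergic-like nuclei, whose median depth was higher (20780 and 18993 UMIs). An Aqp4 UMI was found in 70.8% and 76.5% of astrocyte-like nuclei, and a Gfap UMI in 45.8% and 41.9%. With every nucleus thinned to 1000 UMIs, which left out 0 astrocyte-like nuclei, the share was 38.3% (29.6 to 47.6) and 55.1% (46.4 to 63.7) for Gja1, 18.3% (11.9 to 26.4) and 31.6% (23.9 to 40.1) for Aqp4, 24.2% and 32.4% for Mfge8 and 13.3% and 13.2% for Gfap. In glutamatergic-like nuclei the thinned Aqp4 share was 0.419% and 0.325%. At this depth the intervals of Gja1, Aqp4 and Mfge8 overlapped between the libraries.

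Several measures of the libraries moved with these ratios. Genes of short span had higher OLE/vehicle ratios in astrocyte-like nuclei as a group. The median log2 ratio was 0.20 for genes under 10 kb, 0.09 for 10 to 30 kb, 0.01 for 30 to 100 kb and -0.08 over 100 kb. Mfge8, Aqp4 and Gja1 have spans of 15.3, 21.5 and 25.2 kb, and in their class 11.7% of 350 genes stood at 0.5 or more. Gfap, of the same class with 13.6 kb, stood at 0.14. Less the median of like span, the ratios were 0.95 for Mfge8, 0.85 for Aqp4 and 0.58 for Gja1.

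The removal of nuclei with high doublet scores also bore on the values. Without it the astrocyte-like cluster held 33 further nuclei of the vehicle and 40 of the OLE library. Those nuclei had 3843 and 3439 UMIs per 1000000 of neuronal markers, against 1410 and 1221 in the cluster as used. Their astrocyte markers summed to 9603 and 6398 UMIs per 1000000, against 23943 and 25585. They held 300324 UMIs in the vehicle and 695534 in the OLE library, with medians of 4966 and 14067 per nucleus. With them the log2 ratio was 0.70 for Mfge8, 0.51 for Aqp4 and 0.26 for Gja1, and that of Slc1a2 changed sign to -0.18. Counted per UMI of the 18 astrocyte markers, with those nuclei included, it was 0.92 for Mfge8, 0.73 for Aqp4, 0.48 for Gja1 and 0.05 for Slc1a2. The part of doublets, gene span or neuronal RNA in the differences was not tested.

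The sequences before the start sites are shown for Mfge8 and Gja1, whose levels stood apart between the libraries, and for Gfap, whose level did not. They are the 250 bases before the RefSeq start (GRCm38.p6), printed 5′ to 3′ on the strand of the gene. The windows are chr7:79149061-79149310 (minus strand) for Mfge8, chr10:56377050-56377299 (plus strand) for Gja1 and chr11:102897201-102897450 (minus strand) for Gfap. Capitals mark matches, on either strand, to 1 of 5 motifs that were searched. The motif of STAT factors was spelled TTCNNNGAA and that of AP-1, a dimer of Fos and Jun proteins, TGANTCA. The box bound by the TATA-binding protein was spelled TATAAA, the motif of the Notch effector RBPJ was spelled TGGGAA, and for factors of the SOX family, which act in glia, the letters were ACAAAG.
Mfge8: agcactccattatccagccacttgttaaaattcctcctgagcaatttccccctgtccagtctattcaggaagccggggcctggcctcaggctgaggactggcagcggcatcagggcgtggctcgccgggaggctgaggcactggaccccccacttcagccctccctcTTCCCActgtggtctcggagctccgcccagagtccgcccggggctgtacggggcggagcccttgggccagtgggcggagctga
Gja1: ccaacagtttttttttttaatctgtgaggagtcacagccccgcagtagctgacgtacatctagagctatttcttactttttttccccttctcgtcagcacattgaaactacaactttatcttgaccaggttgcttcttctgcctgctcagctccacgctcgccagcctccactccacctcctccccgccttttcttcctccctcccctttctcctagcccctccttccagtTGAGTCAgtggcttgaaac
Gfap: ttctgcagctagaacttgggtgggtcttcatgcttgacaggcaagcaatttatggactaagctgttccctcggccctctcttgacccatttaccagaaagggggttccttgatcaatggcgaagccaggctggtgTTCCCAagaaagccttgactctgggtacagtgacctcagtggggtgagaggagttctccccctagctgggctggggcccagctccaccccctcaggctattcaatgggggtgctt
The AP-1 match of Gja1 begins at position -19 from the start, the RBPJ match of Mfge8 at -83 and that of Gfap at -115. The AP-1 motif was in 6.75% of 32851 such windows and the RBPJ motif in 21.6%. The STAT motif, the site class of a transcription factor of reactive astrocytes, was in 7.02% of all windows and in none of these 3. The windows differed in base composition, with 12 CpG dinucleotides and 65.2% G or C in Mfge8, 6 and 50% in Gja1 and 2 and 55.6% in Gfap. Over the 10 windows of the 9 members with an entry (Aldoc has 2), the RBPJ motif was in 5, the STAT motif in 2 (Slc1a3 and 1 of Aldoc), the TATA box in 2 (Slc1a3 and Vim), the AP-1 motif in 1 and the SOX motif in 0, against 12.4% of all windows for the TATA box and 16.5% for SOX. A match is a run of letters and not evidence of binding. Aqp4 had no entry.

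Within astrocyte-like nuclei the summed level of Aqp4 was highest in the nuclei with the most Gfap UMIs, and a few nuclei carried it. In vehicle nuclei with 0, with 1 or 2 and with 3 or more Gfap UMIs (65, 41 and 14 nuclei), Aqp4 stood at 186.8, 239.3 and 653.8 UMIs per 1000000. In OLE nuclei (79, 39 and 18) it stood at 355.4, 423.7 and 1056. In both libraries the interval of the highest class (501.3 to 838.1 and 902.1 to 1229) lay above those of the other classes. In that class 1 vehicle nucleus held 24 of 62 Aqp4 UMIs, and 4 OLE nuclei, with 62, 24, 18 and 17, held 121 of 167. Without the nucleus with the most Aqp4 UMIs the level was 441.7 in vehicle and 752.2 in OLE, and without the highest 4 it was 300.0 and 383.6, so that in OLE it no longer exceeded the class with 1 or 2 Gfap UMIs. Slc1a3 was flat over the same classes, at 3335, 3177 and 3164 in the vehicle and 3194, 3207 and 3169 in OLE.

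In each Gfap class the intervals of Mfge8, Aqp4 and Gja1 lay apart between the libraries. In nuclei without a Gfap UMI the log2 ratio was 1.22 for Mfge8, and Mfge8 stood at 223.2 in vehicle and 518.9 in OLE, Aqp4 at 186.8 and 355.4 and Gja1 at 393.0 and 621.3. Nuclei with 3 Gfap UMIs or more had higher median depth, 6090.5 in vehicle and 7934 in OLE against 5299 and 5517 in nuclei with none, and lower neuronal markers, 980.7 and 777.9 UMIs per 1000000 against 1545 and 1341. The classes are cut from a single low count, so a nucleus can fall on either side of a bound by sampling. Over all nuclei of a library the rank correlations between pairs of the 8 measured genes were weak, from -0.14 to 0.29 in the vehicle (120 nuclei) and from -0.06 to 0.27 in OLE (136 nuclei).

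**Figure D5:**
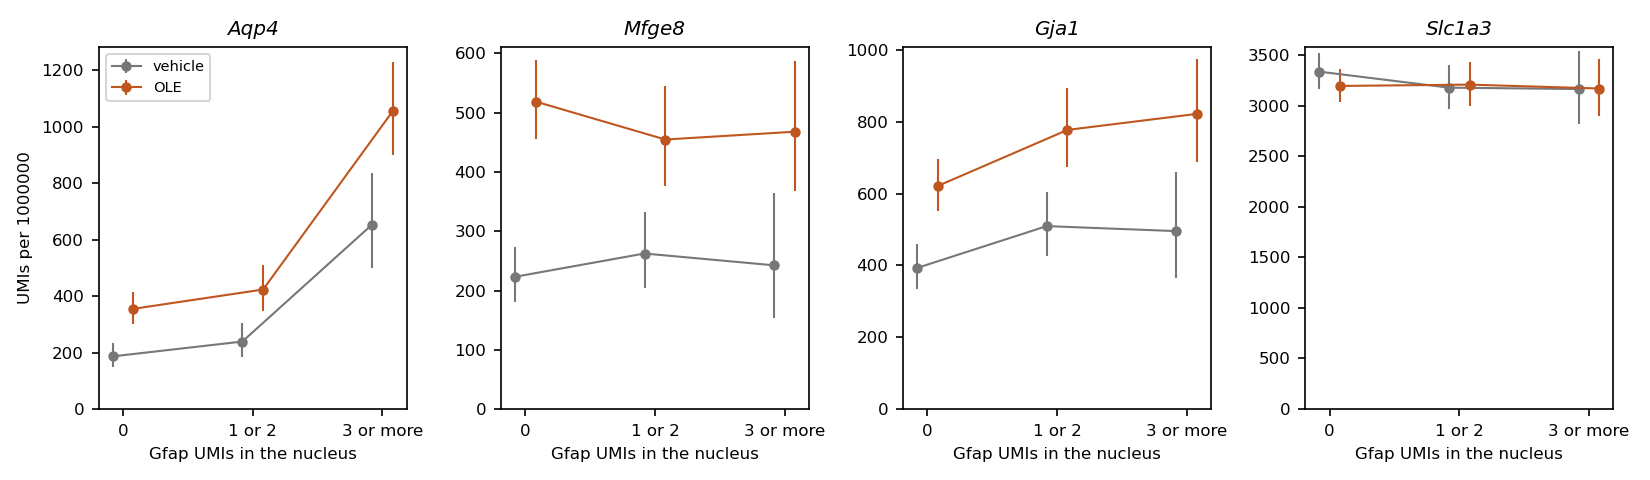
Level of 4 genes (UMIs per 1000000, with 95% Poisson intervals) in astrocyte-like nuclei with 0, 1 or 2, and 3 or more Gfap UMIs, for the vehicle (grey; 65, 41 and 14 nuclei) and the OLE library (orange; 79, 39 and 18 nuclei). Aqp4 reaches 653.8 and 1056 in the highest class, where in OLE 4 nuclei hold 121 of 167 UMIs, Mfge8 and Gja1 are higher in OLE at each class, and Slc1a3 lies between 3164 and 3335 throughout.

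Gfap had a further source outside the astrocyte-like cluster. In the mixed unnamed cluster, which was rich in mitochondrial transcripts and led by vascular genes and Ttr, Gfap stood at 422.4 UMIs per 1000000 in vehicle (289 UMIs in 349 barcodes) and at 200.5 in OLE (161 UMIs in 409 barcodes). In the vehicle, 3 barcodes with 72, 56 and 37 UMIs held 57.1% of these UMIs, while in OLE the top 3 held 13, 11 and 10. Without the top 3 the levels were 181.2 and 158.1. Barcodes of this cluster with 5 or more Gfap UMIs (10 and 8) had 28.4% and 6.56% mitochondrial UMIs. Their level of Gpc5, a long intron-rich astrocyte gene, was 118.3 and 1789 UMIs per 1000000, against 12708 and 12897 in astrocyte-like nuclei.

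That cluster bears on the Gfap ratio. When nuclei were clustered on log-normalized counts, 119 of the 120 vehicle nuclei stayed astrocyte-like and 1 barcode with 72 Gfap UMIs joined them, so that the vehicle count became 201 in place of 129 and the log2 ratio -0.51 in place of 0.14. The Gfap ratio was also below 0 as a mean over nuclei, at -0.21, and with every nucleus thinned to 1000 UMIs, at -0.32.

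Outside astrocyte-like nuclei most ratios had intervals that held 0. In the unnamed pair of low-UMI clusters the log2 ratio was 0.52 (0.32 to 0.72) for Aldoc and 0.37 (0.13 to 0.62) for Aqp4. It was 0.34 (0.16 to 0.53) for Gja1 and 0.12 (0.07 to 0.18) for Slc1a2, and the intervals of the other members held 0 there. Mfge8 had 24 UMIs in vehicle and 40 in OLE OPC-like nuclei (log2 ratio 1.01, interval 0.24 to 1.80), and 85 and 84 UMIs in glutamatergic-like nuclei, a ratio of 0.13 (-0.32 to 0.59). Gja1 stood at a ratio of 0.46 (0.19 to 0.73) in VLMC-like nuclei, with 0.68 (0.37 to 0.99) in the cluster led by Bnc2 and -0.45 (-1.06 to 0.15) in that led by Ranbp3l. Aldoc was higher in OLE in neurons and oligodendrocytes, at 1.28 (0.71 to 1.88) in GABAergic-like nuclei with 37 and 85 UMIs, 0.66 (0.12 to 1.22) in those of oligodendrocytes and 0.45 (0.21 to 0.69) in glutamatergic-like ones. Aldoc is short, at 4.81 kb, and in GABAergic-like nuclei 25.8% of genes under 10 kb stood at 0.5 or more, with a median of 0.29.

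VLMC-like nuclei differed in more of the members. Their log2 ratio was 1.65 (0.53 to 2.92) for Gfap with 9 and 29 UMIs, 1.35 (0.74 to 2.00) for Vim, 1.38 (0.22 to 2.67) for Aqp4 with 9 and 24 UMIs and 0.71 (0.39 to 1.04) for Glul. In these nuclei 58.7% of genes under 10 kb stood at 0.5 or more, so that Vim (8.9 kb) and Glul (9.78 kb) lay among many genes of their span. Without the nucleus with the most UMIs in each library the Gfap ratio was 0.23 and that of Aqp4 -0.84, so both rested on single nuclei, while Vim was at 1.59 and Glul at 0.85.

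The wider astrocyte programme was read from lists of related genes. Of 23 genes for glutamate, potassium, water and lactate handling, 18 had 100 UMIs or more, 2 stood at a log2 ratio of 0.5 or more (against 4.38% of all genes tested) and 0 at -0.5 or less, with a median of 0.18. These were Mlc1, an endfoot membrane protein, at 1.01 (0.62 to 1.42) and Atp1b2, a sodium pump subunit, at 0.56 (0.26 to 0.86). The lowest were Dag1 at -0.19 and Dtna at -0.09, which belong to the dystrophin complex that anchors aquaporin-4.

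Of 28 genes described in astrocytes of amyloid models, 21 had 100 UMIs or more, 8 stood at 0.5 or more (4.38% of all genes tested) and 0 at -0.5 or less (3.68%), with a median of 0.44. Several are short, such as Apoe with 3.08, Cst3 with 3.97 and Gpr37l1 with 7.45 kb, and 18.5% of all genes under 10 kb stood at 0.5 or more. The highest were Cd81, a tetraspanin, at 1.10 (0.84 to 1.37), Apoe, the main brain apolipoprotein, at 1.09 (1.01 to 1.17) and Slc3a2, an amino acid transporter heavy chain, at 0.89 (0.43 to 1.37). The lowest were Fth1, ferritin heavy chain, at -0.48 (-0.82 to -0.14) and Mt3, a metallothionein, at -0.30 (-0.72 to 0.13). The study picked Apoe, Cd81, Cst3, Slc3a2 and Gpr37l1 of this list from these libraries, so the count is not independent evidence of its direction.

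The classic reactive genes were hardly measured. Of 10 pan-reactive genes 0 reached 100 UMIs, and Lcn2, Steap4 and Hspb1 had 0 UMIs in both libraries, with at most 16 for any gene and library of the list. Of 14 genes of the inflammatory type only C4b, a complement component, reached 100 UMIs, at 0.54 (0.15 to 0.93) with 90 and 149 UMIs, and C3 had 0. Of 7 genes of filaments and their anchors only Dst reached 100 UMIs, at -0.03. Of 15 astrocyte transcription factors and Notch genes 13 did, 1 stood at 0.5 or more, against 4.38% of all genes tested, and 0 at -0.5 or less, with a median of -0.01. This was Hes1 at 0.72 (0.11 to 1.36). Nuclear retained RNAs, Malat1 among them, gave a median of 0.08 over 5 genes, with 0 beyond 0.5 in either direction.

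For each member the genes with the most alike pattern over 7 named classes in 2 libraries were found by Pearson's r of log2(UMIs per 1000000 + 10), over 14 points that share 2 preparations. Out of 11353 genes with 500 UMIs or more, Slco1c1 (r = 0.986) and Prdx6 (0.982) were most like Aqp4, Slc7a10 (0.975) and Ntsr2 (0.967) most like Mfge8, and Aqp4 (0.982) and Prdx6 (0.981) most like Gfap. Slc1a3 was most like Sugct (0.973) and Nfia (0.969), Aldoc most like Mt3 (0.974) and Fbxo2 (0.970), and Glul most like Tob2 (0.971) and St3gal4 (0.967). Slc1a2, with its neuronal levels, was most like Dennd1a (0.974) and Tagln3 (0.960). Gja1 was most like Fgd6 (0.974) and Pdgfrb (0.973), Vim most like Vtn (0.987) and Mgp (0.968), and Serpina3n most like Wscd1 (0.971) and Nkx2-2os (0.955). The small mural-like class was not among the 7, although Vtn and Pdgfrb were among its leading genes. In it Vim had 0 UMIs in both libraries and Gja1 had 2 in each, so these likenesses do not extend to that class.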

How the data were processed

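Nuclei were isolated by the authors from frozen entorhinal cortex, pooled over 5 mice, and made into 10X 3′ v3 libraries. They aligned reads with Cell Ranger (3.0.1 in their processing notes) to an mm10 pre-mRNA reference and used Seurat 4.0.4; the deposited files hold whole-number UMI counts per gene and nucleus, without normalization. The members and gene lists were chosen with earlier results of these data known. Files hold 0 columns of other samples.

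Scrublet (scanpy 1.11.5) scored doublets in each library, with 5% expected. The threshold it set marked 0.104% and 0.130% of vehicle and OLE nuclei, so the 5% with the highest scores (366 and 325) were removed. The rest were clustered with SCTransform (Seurat 5.3.0, sctransform 0.4.2) on 3000 variable genes less the members (9 were among them), 30 components, 20 neighbours and resolution 0.4. A cluster was named where 3 or more markers of a class stood at 4 times or more the 10th percentile of clusters and in 10% or more of its nuclei, with a check against its 10 leading genes; this rule was set after the clusters were seen. UMIs were then summed per class and library. Positions come from GENCODE vM21 (GRCm38), with 99.6% of gene IDs matched. The ratio intervals were checked on simulated counts. Named are the members, up to 3 highest and 2 lowest genes of each list, the 2 genes most alike each member, and classes where a member reached 10% of its astrocyte-like level. A gene that this rule would name is not reported here. Alternatives used edgeR 4.0.16 (TMM) and DESeq2 1.42.0 (median of ratios) for scaling only.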

Additional observations from a re-analysis of the deposited data

Results flagged for a closer look

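Slc1a3 differed between the libraries in opposite directions in different cell classes. Its log2 OLE/vehicle ratio was 0.79 (0.31 to 1.29) in GABAergic-like nuclei, with 58 UMIs in vehicle and 95 in OLE, and -0.66 (-0.85 to -0.49) in VLMC-like nuclei, with 649 and 420, while it was -0.03 in astrocyte-like nuclei. With 1 library per condition the difference between the classes was not tested. In VLMC-like nuclei the ratio was -1.93 (-2.66 to -1.24) in the cluster led by Bnc2 and -0.42 (-0.61 to -0.23) in that led by Ranbp3l.

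Vim stood above its astrocyte-like level in the mixed unnamed cluster, which is outside the named classes, at 51.2 UMIs per 1000000 in the vehicle (35 UMIs) and 32.4 in OLE (26 UMIs), against 5.22 and 3.43 in astrocyte-like nuclei.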

How the results depend on the processing

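No paired analysis was possible because each condition has 1 library. Under every alternative the median ratio of the 10 genes stayed between the median of their lower and the median of their upper limits. These bounds are not an interval of the median, and they take in the wide limits of Vim and Serpina3n. Mfge8 and Aqp4 stayed at 0.5 or more in each of 16 alternatives, Gja1 in 13 of 16. Members kept among the variable genes, resolution 0.8 and a minimum of 6 of 18 astrocyte markers returned the same 120 and 136 nuclei. The ratios were therefore identical there and give no check. Mfge8 ranged from 0.61 (thinned to 1000 UMIs) to 1.22 (nuclei without a Gfap UMI), Aqp4 from 0.51 to 0.94 and Gja1 from 0.26 to 0.68, lowest without doublet removal for both. Without that removal Slc1a2 turned to -0.18, the share of astrocyte-like nuclei in OLE moved to 4.91%, and the median log2 level of astrocyte-like over other named nuclei moved from 5.19 to 4.92. This level was 4.67 at resolution 0.8, where the astrocyte-like nuclei were the same and only the set of other named nuclei changed. It was 5.54 with the neuronal profile subtracted, a step that scales up what remains, and 4.72 as a mean over nuclei. Why the values moved without doublet removal, or the level as a mean over nuclei, was not tested. Of single values, 185 stayed within their counting intervals under an alternative and 76 moved. The 185 include the OLE/vehicle ratios of the alternatives that returned the same nuclei. Slc1a2 was the 1 value with an interval off 0 that changed sign; among those whose interval held 0, 12 did (5 of Gfap, 3 each of Glul and Vim, 1 of Slc1a3). With a minimum of 20 UMIs, 14% of genes stood at 0.5 or more and 10.2% at -0.5 or less. TMM moved the ratios by 0.03 and the median of ratios by less. Removal of the top nucleus, centring on gene span, scaling on astrocyte markers, the Gfap split and the Aqp4 level without the top nuclei were chosen after the data were seen.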

Other observations

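Kcnj16, a potassium channel subunit of astrocytes, had 15 UMIs in vehicle and 55 in OLE astrocyte-like nuclei, a log2 ratio of 1.68 (0.84 to 2.61). It was below the minimum of 100 UMIs and was singled out after its values were seen. Kcnj10, with which it forms channels, stood at 0.29 (-0.18 to 0.75) with 69 and 96 UMIs.

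The summed level of Apoe was highest in the astrocyte-like nuclei with the most Gfap UMIs, a class of 14 vehicle and 18 OLE nuclei. In nuclei with 0, with 1 or 2 and with 3 or more Gfap UMIs it stood at 1759, 2965 and 4545 UMIs per 1000000 in the vehicle and at 4264, 4676 and 9607 in OLE. Id3, a target of growth factor signalling, stood at 24.3, 100.4 and 284.7 in the vehicle and at 58.9, 116.6 and 189.7 in OLE. Slc7a10, a marker of grey matter astrocytes, stood at 262.0, 274.1 and 200.4 and at 318.3, 291.6 and 170.8. In the vehicle its intervals overlapped (214.9 to 316.3, 214.1 to 345.7 and 120.6 to 312.9). In OLE those of neighbouring classes overlapped (268.8 to 374.3, 229.3 to 365.5 and 112.5 to 248.5). So did those of Id3 in OLE (38.8 to 85.6, 78.7 to 166.5 and 128.0 to 270.9), on 27, 30 and 30 UMIs. For Apoe in OLE the intervals of the classes with fewer than 3 Gfap UMIs overlapped (4077.5 to 4457.7 and 4415.9 to 4948.4). Whether a few nuclei carried the levels of Apoe, Id3 or Slc7a10 was not tested.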
